A study of Mus musculus with 6 samples.

Results

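The genes described here are 27 genes of cholesterol synthesis and of its control by SREBP2. They comprise 8 enzymes of the mevalonate steps, 12 enzymes from squalene synthase to the end of the pathway, the sterol carrier Stard4 and 6 genes of SREBP2 and its processing. They were taken by gene symbol from the 55487 gene rows of the deposited table. All 27 were found, and all 27 were among the 14478 genes that passed the filter on low counts.

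The cells were macrophages grown from the bone marrow of female Balb/c mice, wild type (WT) and 6 to 12 weeks old. Marrow cells had grown for 8 days in a medium with 20% of L929 fibroblast supernatant, a source of the macrophage growth factor CSF1. Both groups then had IL-4 and IL-13 (10 ng/mL each) for 24 hours, which gives the M2 or alternatively activated state. The NP group, 3 samples with the treatment label PEMA, next received 200 µg/mL of nanoparticles for 24 hours, and the PBS group, 3 samples, received PBS as the vehicle. According to the series title the nanoparticles are made of poly(lactide-co-glycolide). No label explains PEMA. Whether the 3 samples of a group are separate cultures or animals is not in the labels. The p-values therefore describe the spread among these samples alone, and that spread may be technical.

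Total counts were 41974957 to 56265590 in the PBS libraries and 60702163 to 69450411 in the NP libraries, with no overlap in depth between the groups. Levels are given as CPM, counts scaled to a common library size. Genes of olfactory and vomeronasal receptors, which macrophages are not known for, summed to 139 CPM in PBS 2 and 154 CPM in PBS 3, while the other 4 libraries had 9.71 to 12.5 CPM. Macrophage markers summed to 12600 to 13000 CPM in PBS and 9920 to 11000 CPM in NP. By limma voom (adjusted p under 0.05), 7 of these 10 markers fell and 1, Cd68, rose. Over all genes tested 21.4% fell and 19.8% rose. Markers of fibroblasts, the cells that conditioned the medium, summed to at most 3.43 CPM. Markers of lymphocytes summed to at most 11.2 CPM and of dendritic cells to at most 5.88 CPM, and Ly6g, Camp, Nkg7 and Gzma, of neutrophils and lymphocytes, were at 0 in all libraries. Of 7 tested markers of alternative activation 5 fell, beside 21.4% of all genes tested. Their list summed to 1810 to 2100 CPM in PBS and 851 to 985 CPM in NP. Of 20 cell cycle genes 19 fell, beside the same 21.4%. They summed to 2280 to 2420 CPM in PBS and 1080 to 1480 CPM in NP. The part of depth and of the cell cycle in the results on sterol genes was not tested. Where a fit with the receptor counts as a covariate, or with PBS 1 alone against NP, ended a call, its adjusted p stands beside the gene. These fits are not separate checks. PBS 1 had receptor counts near those of the NP libraries, so the covariate fit also rests mainly on PBS 1.

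Cholesterol is built from acetyl-CoA. The mevalonate steps make the isoprenoid unit farnesyl diphosphate, which also feeds protein prenylation, ubiquinone and dolichol, and the later steps join and cyclize it through squalene and lanosterol to cholesterol. SREBP2, encoded by Srebf2, is the transcription factor of these enzymes. It sits in the endoplasmic reticulum bound to SCAP. When sterols are low, SCAP carries it to the Golgi, where the proteases encoded by Mbtps1 and Mbtps2 release its active part, and when sterols are high, the INSIG proteins hold SCAP back. Macrophages also take up much cholesterol from lipoproteins and dying cells, store it as ester and export it through genes driven by the LXR receptors.

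In macrophages given nanoparticles, 12 of the 27 genes rose (44.4%), 4 fell and 11 did not pass the test. Among all genes tested, 19.8% rose, 21.4% fell and 41.2% did either by the same test (limma voom, Benjamini-Hochberg adjusted p under 0.05). The median log2 fold change (NP minus PBS) of the 27 was 0.06, beside 0.00 over all genes tested, where the quartiles were -0.19 and 0.15. Of the 12 enzymes from squalene on, 7 rose and 1 fell, with a median of 0.26, while 3 of the 8 mevalonate enzymes rose and 1 fell, with a median of 0.00. Sqle, Insig1 and Sc5d had the largest increases and Lbr the largest decrease.

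The increases were small: none of the 12 reached 1.5-fold, and the largest, in Sqle, was 1.39-fold. In 12 of the 27 genes every NP library lay above every PBS library, which held for 26.5% of all genes tested, and in 4 every NP library lay below, against 26.8% of all genes. With PBS 1 as the only PBS library, 6 of the 27 genes rose and 2 fell, among 2972 genes called in all, in a fit that takes the lone library to vary like the NP libraries. With the olfactory receptor counts as a covariate, 7 rose and 1 fell, among 3341 genes called in all, against 5964 in the main fit.

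**Figure D1:**
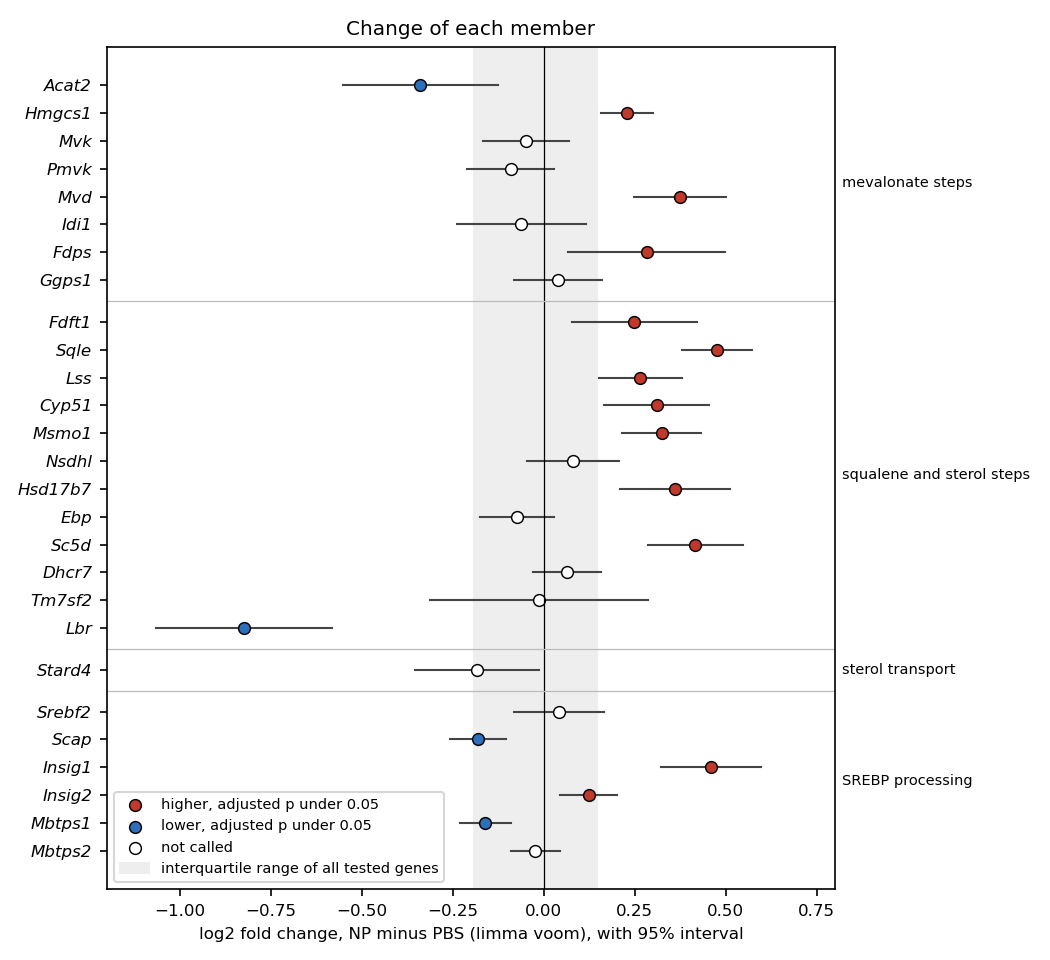
Log2 fold change of each of the 27 genes (NP minus PBS, horizontal axis) with its 95% interval, grouped by role, with called genes marked by colour. The 7 called increases of the squalene and sterol steps lie between 0.25 and 0.48, and Lbr stands alone at -0.82.

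Promoter sequences of 4 genes show the kind of region that these genes share: Insig1 and Sc5d, among the largest increases, Lbr, the largest decrease, and Hmgcs1, which was added after its match was seen. Each covers 250 bases before and 50 bases after the start of the gene in RefSeq (GRCm38.p6), written 5′ to 3′ along the gene. The Insig1 window lies at chr5:28071162-28071461 on the plus strand, the Sc5d window at chr9:42264251-42264550 on the minus strand, the Lbr window at chr1:181842352-181842651 on the minus strand and the Hmgcs1 window at chr13:119690101-119690400 on the plus strand. Capitals mark the CCAAT box on either strand (ATTGG where it is on the other strand) and, in Hmgcs1, the sterol regulatory element.
Insig1: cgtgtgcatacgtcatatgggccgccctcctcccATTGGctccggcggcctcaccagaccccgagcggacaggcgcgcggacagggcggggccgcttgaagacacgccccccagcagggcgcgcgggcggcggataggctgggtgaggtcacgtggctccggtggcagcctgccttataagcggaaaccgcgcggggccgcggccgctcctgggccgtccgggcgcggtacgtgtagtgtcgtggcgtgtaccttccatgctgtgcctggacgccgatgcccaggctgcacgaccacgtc
Sc5d: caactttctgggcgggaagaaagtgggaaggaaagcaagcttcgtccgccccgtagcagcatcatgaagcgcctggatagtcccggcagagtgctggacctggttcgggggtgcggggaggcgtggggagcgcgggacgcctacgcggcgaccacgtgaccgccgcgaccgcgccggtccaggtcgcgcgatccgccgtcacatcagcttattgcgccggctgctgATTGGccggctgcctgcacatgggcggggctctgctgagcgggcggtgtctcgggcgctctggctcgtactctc
Lbr: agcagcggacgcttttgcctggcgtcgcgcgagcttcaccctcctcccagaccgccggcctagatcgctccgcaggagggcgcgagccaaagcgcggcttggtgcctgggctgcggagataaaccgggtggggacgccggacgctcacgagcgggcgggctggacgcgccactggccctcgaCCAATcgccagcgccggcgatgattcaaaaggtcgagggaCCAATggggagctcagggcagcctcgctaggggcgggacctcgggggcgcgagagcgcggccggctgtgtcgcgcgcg
Hmgcs1: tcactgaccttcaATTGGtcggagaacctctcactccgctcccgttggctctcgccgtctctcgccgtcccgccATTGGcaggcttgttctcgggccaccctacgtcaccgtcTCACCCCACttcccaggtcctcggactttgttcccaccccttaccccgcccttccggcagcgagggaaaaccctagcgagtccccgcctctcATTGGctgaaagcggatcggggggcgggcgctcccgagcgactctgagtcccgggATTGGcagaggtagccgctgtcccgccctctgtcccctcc

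RefSeq held such windows for 23 of the 27 genes, 29 windows in all, and Fdps, Fdft1, Sqle and Stard4 had none. Pmvk and Scap had 2 windows each and Dhcr7 and Insig2 had 3 each. A gene was counted when any of its windows held the letters. The CCAAT box, bound by NF-Y, which acts beside SREBP at sterol genes, was found by its letters CCAAT on either strand in 19 of the 23 (82.6%), against 41.1% of the 27025 genes with a window. By window it was in 19 of 29, against 37.4% of all windows. It was in the windows of 9 of 9 genes that rose, 9 of 10 that did not pass the test and 1 of 4 that fell, which was Lbr. The GC box, searched as GGGCGG on both strands, was found in 20 of the 23 genes (87.0%), against 38.2% of all genes. By window it was in 23 of 29, against 35.7% of all windows. The sterol regulatory element, searched as TCACNCCAC on both strands, was in 1 of 23, Hmgcs1, with the letters TCACCCCAC starting 137 bases before the gene's start, against 1.44% of all genes. The looser form TCACNNCAC, which includes it, was in 4 of 23 (Dhcr7, Hmgcs1, Hsd17b7 and Msmo1), against 4.37% of all genes. A match describes only these letters in this window. The shares over all genes include genes not tested here and were not matched for base composition.

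At the start of the pathway, Acat2 and Hmgcs1 moved in opposite directions. Acat2, the cytosolic thiolase that joins acetyl-CoA to acetoacetyl-CoA, read 14.4, 13.2 and 14.6 CPM in PBS 1 to 3 and 9.87, 12.97 and 10.9 CPM in NP 1 to 3. Every NP library was below every PBS library, by a small margin in NP 2, and Acat2 fell with a log2 fold change of -0.34 (SE 0.09, limma adjusted p = 0.0175). It was no longer called when PBS 1, PBS 3, NP 1 or NP 3 was left out (adjusted p = 0.0723, 0.0692, 0.0899 and 0.103), nor with the receptor covariate (0.0933) or PBS 1 alone (0.117). Hmgcs1, which makes HMG-CoA, read 86.7, 87.7 and 84.3 CPM in PBS 1 to 3 and 101, 103 and 99.3 CPM in NP 1 to 3. The 3 NP libraries lay close together above all PBS libraries, and Hmgcs1 rose by 0.23 (SE 0.03, limma adjusted p = 4.58e-04). It lies at chr13:119690379-119708260 (GRCm38, GENCODE M21).

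Of the enzymes between mevalonate and farnesyl diphosphate, only Mvd and Fdps were called. Mvd, the decarboxylase that makes isopentenyl diphosphate, read 21.3, 19.8 and 23.2 CPM in PBS 1 to 3 and 27.1, 27.9 and 28.5 CPM in NP 1 to 3. It rose with no overlap between groups, from 21.4 ± 1.71 to 27.8 ± 0.710 CPM (SD, n = 3 each), a log2 fold change of 0.37 (SE 0.06, limma adjusted p = 7.36e-04). Fdps, farnesyl diphosphate synthase, read 43.4, 39.5 and 47.2 CPM in PBS 1 to 3 and 45.4, 59.1 and 54.96 CPM in NP 1 to 3. NP 1 lay inside the PBS range and NP 2 and NP 3 above it. The log2 fold change of Fdps was 0.28 (SE 0.10, limma adjusted p = 0.0398), and it was no longer called when PBS 1 (0.0865), PBS 2 (0.155), NP 2 (0.132) or NP 3 (0.169) was left out. With the receptor covariate the adjusted p of Fdps was 0.181 and with PBS 1 alone 0.221.

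The mevalonate kinases Mvk and Pmvk, the isomerase Idi1 and the branch enzyme Ggps1, which makes geranylgeranyl diphosphate for prenylation, did not pass the test. Mvk had a log2 fold change of -0.05 (95% interval -0.17 to 0.07) and Pmvk one of -0.09 (95% interval -0.21 to 0.03). That of Idi1 was -0.06 (95% interval -0.24 to 0.12), with NP 1 below and NP 2 above all PBS libraries (31.2 and 39.9 CPM, against 35.3 to 37.6 CPM). The value for Ggps1 was 0.04 (95% interval -0.08 to 0.16). Exons of Ggps1 share 257 bases with Arid4b on the opposite strand, which held 22394 counts against 6131.

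Squalene epoxidase, Sqle, the oxygen-requiring enzyme that commits squalene to sterols, had the largest increase of the 27 genes. It read 40.3, 40.2 and 41.3 CPM in PBS 1 to 3 and 53.7, 59.4 and 56.6 CPM in NP 1 to 3. The PBS libraries lay close together and all NP libraries above them, and the log2 fold change was 0.48 (SE 0.04, limma adjusted p = 5.28e-05). Sqle lies at chr15:59315077-59331192. Lss, which closes the rings to lanosterol, read 27.02, 27.4 and 26.4 CPM in PBS 1 to 3 and 30.8, 34.6 and 31.9 CPM in NP 1 to 3. It rose by 0.27 (SE 0.05, limma adjusted p = 0.00269), again with no overlap.

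Fdft1, squalene synthase, takes farnesyl diphosphate into the sterol branch. It read 14.3, 13.6 and 14.3 CPM in PBS 1 to 3 and 15.2, 18.4 and 17.00 CPM in NP 1 to 3. NP 1 was the nearest to the PBS libraries, and the log2 fold change was 0.25 (SE 0.08, limma adjusted p = 0.0256). Leaving out PBS 2 (adjusted p = 0.094), PBS 3 (0.0688), NP 2 (0.0546) or NP 3 (0.0971) ended the call, as did the receptor covariate (0.198) and PBS 1 alone (0.263). Exons of Fdft1 share 774 bases, 18.3% of their length, with Ctsb on the opposite strand. The cathepsin B gene Ctsb held 3298762 counts over the 6 libraries, against 5296 for Fdft1, and rose too (log2 fold change 0.16, adjusted p = 0.00666). Without a stated strand setting, reads of the shared stretch cannot be told apart.

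Lanosterol then loses methyl groups through Cyp51, Msmo1, Nsdhl and Hsd17b7. Cyp51, the 14-alpha demethylase, read 39.5, 37.8 and 35.96 CPM in PBS 1 to 3 and 43.4, 51.4 and 46.2 CPM in NP 1 to 3 and rose by 0.31 (SE 0.06, limma adjusted p = 0.00394). It shares 166 exonic bases with Akap9 on the opposite strand, which rose by 0.20 on the log2 scale. Msmo1, the C4-methyl oxidase, read 40.5, 38.9 and 39.8 CPM in PBS 1 to 3 and 46.9, 52.96 and 49.9 CPM in NP 1 to 3 and rose by 0.32 (SE 0.05, limma adjusted p = 6.76e-04). In both genes NP 2 was the highest library and NP 1 the lowest NP library.

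Hsd17b7, the 3-keto reductase that ends C4 demethylation, read 11.2, 10.8 and 10.6 CPM in PBS 1 to 3 and 12.96, 14.2 and 14.8 CPM in NP 1 to 3. It rose by 0.36 (SE 0.07, limma adjusted p = 0.00229), with no overlap between groups. Nsdhl, the dehydrogenase of the same complex, did not pass the test, at 15.8, 14.9 and 16.5 CPM in PBS 1 to 3 and 16.5, 17.5 and 16.2 CPM in NP 1 to 3, with overlapping groups and a log2 fold change of 0.08 (95% interval -0.05 to 0.21). The calls of Lss, Cyp51 and Hsd17b7 were lost when PBS 2 and PBS 3 were left out together (adjusted p = 0.0785, 0.136 and 0.0903). With the receptor covariate those of Cyp51 (0.0989) and Hsd17b7 (0.0545) were lost.

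Among the last steps, Sc5d passed the test and Ebp and Dhcr7 did not. Sc5d, the sterol C5 desaturase, read 22.9, 23.3 and 24.04 CPM in PBS 1 to 3 and 28.9, 33.3 and 31.8 CPM in NP 1 to 3. It rose from 23.4 ± 0.577 to 31.3 ± 2.21 CPM (SD, n = 3 each), with a log2 fold change of 0.42 (SE 0.06, limma adjusted p = 4.69e-04), and lies at chr9:42251595-42264256. Ebp, the isomerase just before it, was not called, with a log2 fold change of -0.07 (95% interval -0.18 to 0.03). Dhcr7, a reductase that removes a double bond of the B ring, read 21.97, 21.5 and 21.5 CPM in PBS 1 to 3 and 22.1, 22.8 and 23.1 CPM in NP 1 to 3. Every NP library lay above every PBS library, yet its log2 fold change of 0.06 (95% interval -0.03 to 0.16) did not pass the test (adjusted p = 0.248).

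**Figure D2:**
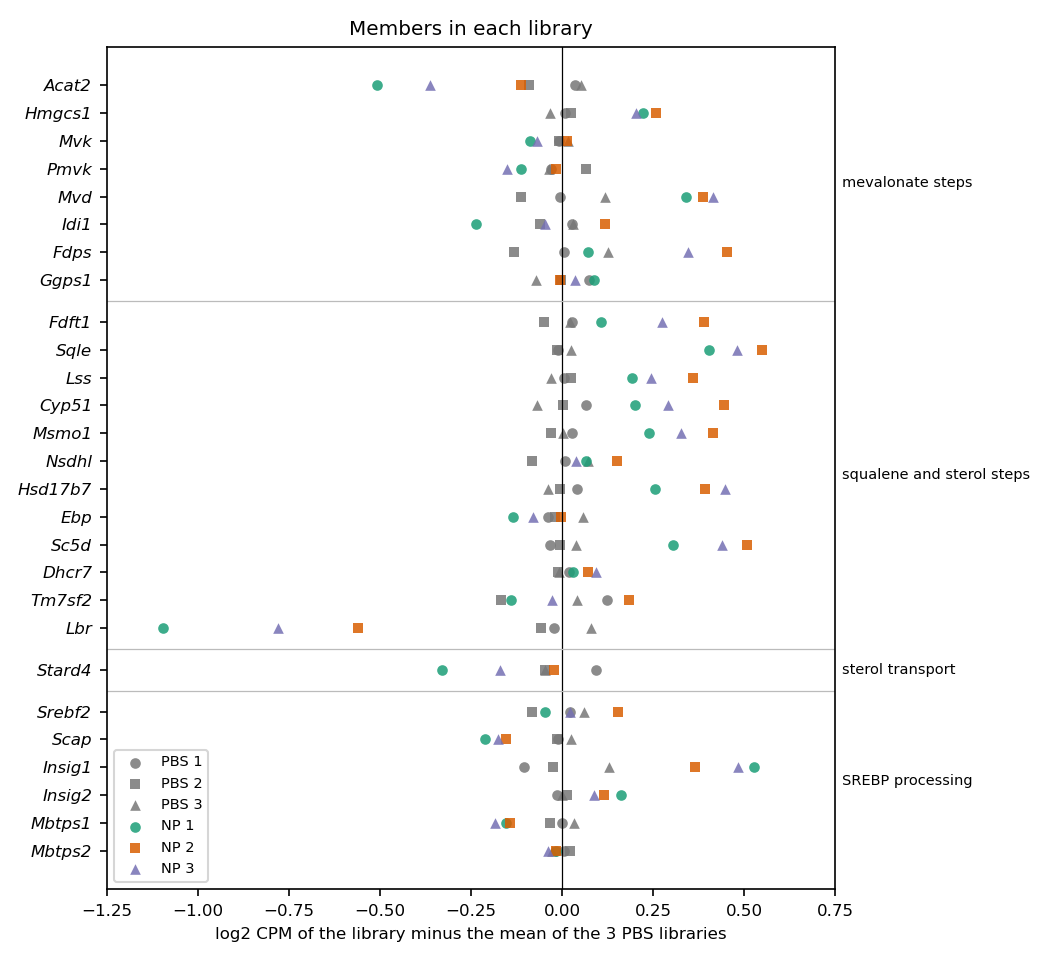
Log2 CPM of each of the 27 genes in each library minus the mean of the 3 PBS libraries (horizontal axis), with PBS libraries in grey and NP libraries in colour. NP 2 is the highest and NP 1 the lowest NP library in most enzymes, and for Insig1 NP 1 is the highest and NP 2 the lowest.

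Lbr was the only enzyme from squalene on that fell. The lamin B receptor is a protein of the inner nuclear membrane that binds lamins and heterochromatin and also reduces the C14 double bond of sterols. It read 39.5, 38.5 and 42.4 CPM in PBS 1 to 3 and 18.7, 27.2 and 23.3 CPM in NP 1 to 3. Every NP library was far below every PBS library, NP 1 the lowest, and Lbr fell to 0.565 of its PBS level, with a log2 fold change of -0.82 (SE 0.11, limma adjusted p = 3.32e-04). It lies at chr1:181815335-181843046 on the minus strand.

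Tm7sf2, which encodes the other C14 reductase, was much scarcer, at 2.704, 2.20 and 2.55 CPM in PBS 1 to 3 and 2.25, 2.82 and 2.43 CPM in NP 1 to 3. The groups overlapped, with a log2 fold change of -0.01 (95% interval -0.31 to 0.29). The ratio of Lbr to Tm7sf2 CPM was 14.6, 17.5 and 16.6 for PBS 1 to 3, but 8.33, 9.64 and 9.59 for NP 1 to 3. These ranges did not overlap, and the two-sided exact permutation test gave p = 0.10, the smallest that 3 against 3 allows. With Tm7sf2 nearly unchanged, the ratio mostly restates the fall of Lbr, and the test adds no support to it. Tm7sf2 shares 532 exonic bases with Vps51 on the same strand, which held 21694 counts against its 849. The order of the NP libraries in Lbr was NP 1 below NP 3 below NP 2. The median of the 20 cell cycle genes had it too, at -1.31, -1.13 and -0.75 on the log2 scale relative to PBS. So did the medians of the squalene and sterol steps, which include Lbr, and of the LXR and oxysterol genes. NP 1 was the library farthest from PBS in the cell cycle and LXR lists. In the squalene and sterol steps it was the nearest, at 0.15 against 0.38 in NP 2. A link between Lbr and the cell cycle was not tested. In bulk RNA fewer cells of a type and less RNA per cell cannot be told apart.

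Within the enzymes the NP libraries had a common order. NP 2 was the highest NP library in 16 of 20 enzymes (80.0%, against 37.4% of all genes tested) and NP 1 the lowest in 16 of 20 (80.0%, against 35.0%). From squalene on, NP 2 was the highest in 10 of 12 and NP 1 the lowest in 11 of 12. The median of these 12 enzymes relative to the PBS mean was 0.15, 0.38 and 0.26 on the log2 scale in NP 1, NP 2 and NP 3. PBS 1 to 3 lay at 0.01, -0.02 and 0.02. Such values share their library, and no test was made of the order.

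**Figure D3:**
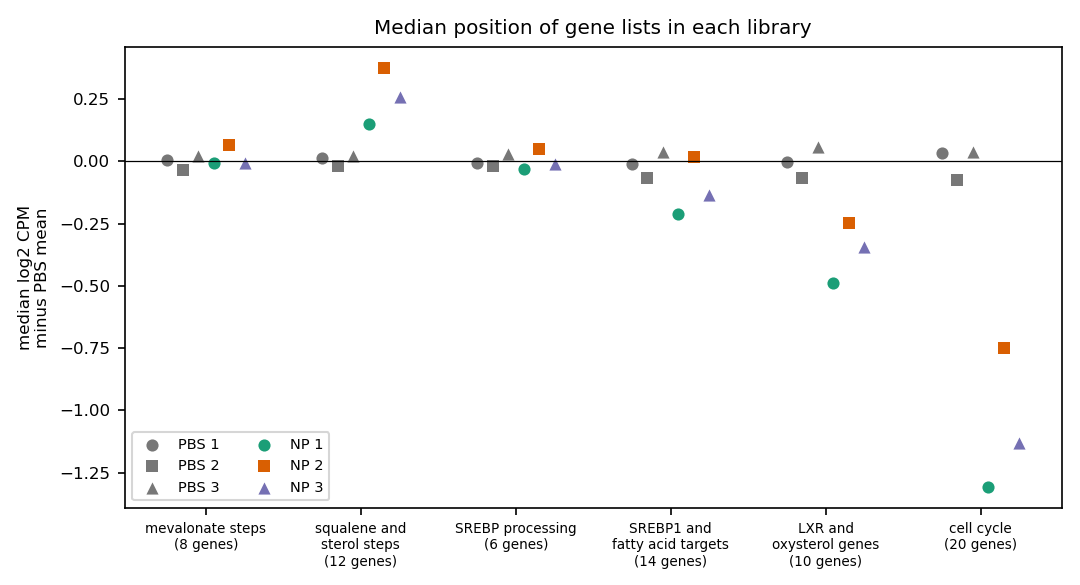
Median log2 CPM of 6 gene lists in each library relative to the PBS mean of each gene (vertical axis). The squalene and sterol steps lie above the PBS libraries in all 3 NP libraries, and the LXR and cell cycle genes lie below all PBS libraries.

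On a scale that corrects for gene length (TPM computed here from the exonic length in GENCODE M21), Insig1 was the highest of the 27 genes, at 92.3 ± 6.72 TPM in PBS (SD, n = 3). Hmgcs1 followed at 63.7 ± 1.83, Srebf2 at 60.7 ± 2.83 and Ebp at 58.1 ± 1.51 TPM. Over the PBS libraries Hmgcs1 overlapped with Srebf2, and Srebf2 with Ebp, so the order within these pairs is not settled. Tm7sf2 was the lowest at 1.92 ± 0.201 TPM. Lbr moved from rank 12 of 27 in PBS to rank 19 in NP, Sqle from 14 to 10 and Sc5d from 21 to 15. Summed over the 20 enzymes, the level was 505, 490.1 and 503 TPM for PBS 1 to 3, and 499, 562 and 537 TPM for NP 1 to 3. NP 1 lay inside the PBS range and the other NP libraries above it.

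Of the 6 SREBP2 control genes, 2 rose (33.3%, beside 19.8% of all genes), 2 fell (beside 21.4%) and 2 did not pass the test. Insig1, whose protein retains SCAP and which is itself a target of SREBP, read 78.2, 82.5 and 91.8 CPM in PBS 1 to 3 and 121, 108 and 117 CPM in NP 1 to 3. It rose from 84.2 ± 6.97 to 116 ± 6.63 CPM (SD, n = 3 each) with no overlap between groups, and the log2 fold change was 0.46 (SE 0.06, limma adjusted p = 3.74e-04). Its highest library was NP 1 and its lowest NP library NP 2, an order that 1 of the 20 enzymes, Ggps1, had too. Insig1 lies at chr5:28071363-28078662. Insig2, the relative whose transcription does not depend on SREBP in the same way, read 42.2, 43.1 and 42.6 CPM in PBS 1 to 3 and 47.8, 46.2 and 45.3 CPM in NP 1 to 3. It rose by 0.12 (SE 0.03, limma adjusted p = 0.0189). The call was not made with PBS 1 alone, where the log2 fold change was 0.13 (adjusted p = 0.141), or with the receptor covariate, where it was also 0.13 (0.125). The ratio of Insig1 to Insig2 CPM was 1.85, 1.92 and 2.15 for PBS 1 to 3, but 2.54, 2.34 and 2.59 for NP 1 to 3. The two-sided exact permutation test gave p = 0.10, again the smallest possible. This ratio mostly restates the larger rise of Insig1, and the test adds no support to it.

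Srebf2 itself was not called. It read 130.3, 121 and 134 CPM in PBS 1 to 3 and 124, 143 and 130.3 CPM in NP 1 to 3, and the log2 fold change was 0.04 (95% interval -0.08 to 0.17). Scap, the escort that senses sterols, read 47.2, 47.1 and 48.4 CPM in PBS 1 to 3 and 41.1, 42.8 and 42.1 CPM in NP 1 to 3. All NP libraries lay below all PBS libraries, and Scap fell by 0.18 on the log2 scale (SE 0.03, limma adjusted p = 0.00241). Mbtps1, the site-1 protease that makes the first cut in SREBP, read 107, 104 and 109 CPM in PBS 1 to 3 and 95.8, 96.5 and 93.9 CPM in NP 1 to 3. It fell by 0.16 (SE 0.03, limma adjusted p = 0.00285), also with no overlap. Mbtps2, the site-2 protease, had a log2 fold change of -0.02 (95% interval -0.09 to 0.04) and was not called. Its exons share 2867 bases with Yy2 on the same strand, which held 1614 counts against 27768. Without PBS 2 and PBS 3 the call of Scap was lost (adjusted p = 0.0644). With the olfactory receptor counts as a covariate those of Scap (0.0566) and Mbtps1 (0.0531) were lost.

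Stard4, a soluble carrier that moves sterols between membranes, read 31.9, 28.9 and 28.9 CPM in PBS 1 to 3 and 23.8, 29.4 and 26.5 CPM in NP 1 to 3. NP 2 lay inside the PBS range and NP 1 and NP 3 below it, and the log2 fold change of -0.18 (95% interval -0.35 to -0.01) did not pass the test after adjustment (adjusted p = 0.0811). Without NP 2 Stard4 was called lower, at -0.25 (0.0243), and without PBS 1 or NP 1 its log2 fold change was -0.12 (0.322) or -0.09 (0.357).

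Other genes of the pathway were taken from 6 lists, of which 83 distinct genes were tested. Of these 23 rose (27.7%, beside 19.8% of all genes tested), 13 fell and 47 did not pass the test. The list of other sterol synthesis genes had 10 tested members, of which 3 rose (30.0%, beside 19.8% of all genes) and 0 fell (beside 21.4%). Por, the oxidoreductase that supplies electrons to Cyp51 and Sqle, rose from 188 ± 12.2 to 259 ± 5.33 CPM, a log2 fold change of 0.46 (adjusted p = 7.95e-05). Cyb5r3, which feeds electrons through cytochrome b5 to Msmo1 and Sc5d, rose by 0.17 (adjusted p = 0.00475), a call not made with PBS 1 alone (0.0562).

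**Figure D4:**
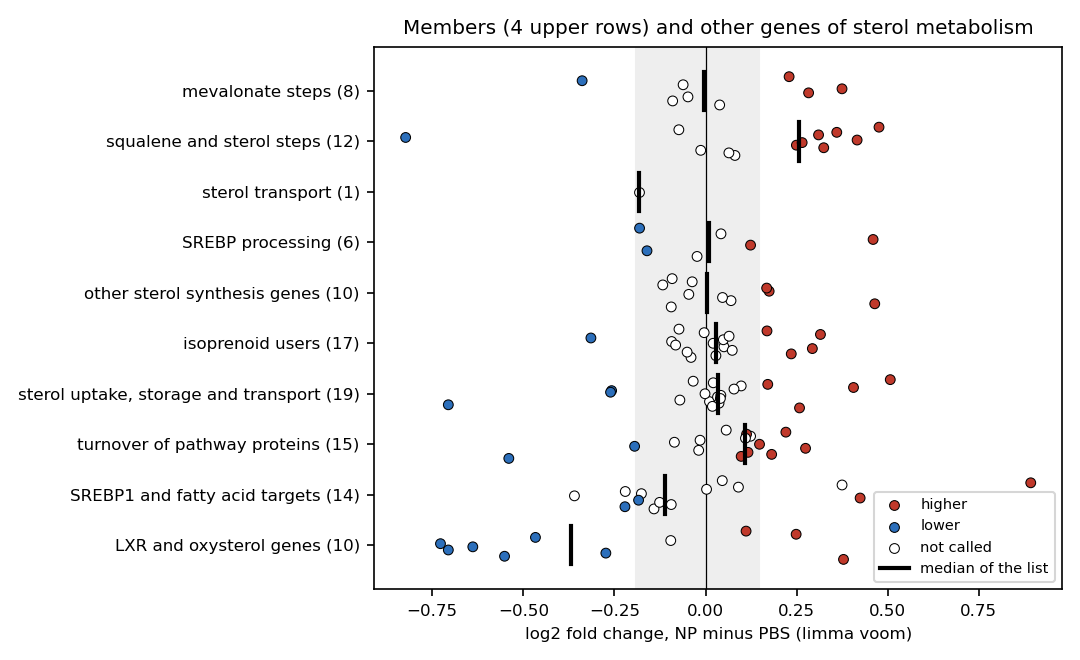
Log2 fold change (NP minus PBS) of each tested gene in the member groups and pathway lists, with called genes marked by colour and the median of each list as a bar. The squalene and sterol steps have a median of 0.26 and the LXR and oxysterol genes one of -0.37.

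Of 19 tested genes of sterol uptake, storage and transport, 4 rose (21.1%) and 3 fell, where 19.8% of all genes tested rose and 21.4% fell, so the share that rose was near that of all genes. Mylip, a ubiquitin ligase whose transcription LXR drives, read 33.8, 31.9 and 35.7 CPM in PBS 1 to 3 and 20.7, 20.9 and 20.5 CPM in NP 1 to 3 and fell by 0.71 on the log2 scale (limma adjusted p = 1.54e-05). Soat1, which esterifies cholesterol for storage, rose from 425 ± 10.5 to 563 ± 30.8 CPM, a log2 fold change of 0.41 (adjusted p = 1.01e-04). Npc1, which exports cholesterol from lysosomes, was not called at 0.03 (adjusted p = 0.598).

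The list on the turnover of SREBP and other pathway proteins had 15 tested genes, of which 7 rose (46.7%, beside 19.8% of all genes) and 2 fell (beside 21.4%). Rnf145, a ligase of the endoplasmic reticulum, fell from 118 ± 6.63 to 80.8 ± 1.24 CPM, a log2 fold change of -0.54 (adjusted p = 2.66e-05). Erlin1, a membrane protein of endoplasmic reticulum degradation, fell by 0.19 on the log2 scale (adjusted p = 0.00134). Pgrmc1, a heme-binding partner of sterol P450 enzymes, rose by 0.22 (adjusted p = 9.59e-04).

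Of 10 tested LXR and oxysterol genes, 6 fell (beside 21.4% of all genes) and 3 rose (30.0%, beside 19.8%). Ch25h, which makes the oxysterol 25-hydroxycholesterol, read 61.5, 64.1 and 50.8 CPM in PBS 1 to 3 and 36.8, 32.99 and 36.04 CPM in NP 1 to 3 and fell with a log2 fold change of -0.73 (adjusted p = 1.54e-04). Apoe, the apolipoprotein that carries exported cholesterol, fell from 1040.0 ± 68.7 to 667 ± 28.2 CPM, a log2 fold change of -0.64 (adjusted p = 3.04e-05). The exporters Abca1 and Abcg1 fell with log2 fold changes of -0.55 (adjusted p = 4.19e-04) and -0.27 (adjusted p = 0.00358). The call of Abcg1 was lost with the receptor covariate (0.107). Mylip, counted above, belongs to this list too. Relative to PBS the median of the list was -0.49, -0.25 and -0.35 in NP 1 to 3, with all 3 below the PBS libraries and NP 1 the lowest.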

How the data were processed

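Poly(A) RNA of 6 samples was read as 151 bp pairs. The deposited values are expected counts per gene, as whole numbers without scaling for depth. Per the submitters' processing notes, the tools included cutadapt 2.3, STAR 2.7.8a and RSEM 1.3.3, with the build GRCm38. Annotation release and strand setting: not given in the sources used here. RSEM divides reads that match several genes, so genes with near-identical copies are uncertain.

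Of 55491 rows, 4 reporter rows were left out. Genes with at least 0.171 CPM in 3 libraries and 15 counts in total were tested (14478). limma voom 3.58.1 (R 4.3.3) was fitted on the group, with TMM factors of 0.979 to 1.02, 4 residual degrees of freedom, an offset of 0.5 counts and Benjamini-Hochberg adjusted p under 0.05 over all genes tested. 3 counts equal 0.0432 to 0.0715 CPM, a limit that covers counting error only. The fit was tested on simulated data. edgeR and DESeq2 were not run, because the quoted layout of the table kept its unit from being checked automatically. TMM factors and the filter were coded in R from their definitions. CPM of single genes uses TMM-scaled sizes.

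The members and lists were chosen with earlier results of these data known. The named genes are all 27 members, the 3 genes of smallest p in each pathway list and a fixed panel, of which a few are not reported here. Exonic lengths and coordinates came from GENCODE M21 and promoters from RefSeq. Alternatives were other scaling, filters, sample weights, a replicate block, covariates and left-out libraries.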

Additional observations from a re-analysis of the deposited data

How the results depend on the processing

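Over 18 alternatives, 7 of the 16 called sterol genes kept their call and direction in each: Hmgcs1, Mvd, Sqle, Msmo1, Sc5d, Insig1 (higher) and Lbr (lower). The log2 fold change of Sqle ran from 0.43 to 0.52, that of Insig1 from 0.42 to 0.58 and that of Lbr from -0.97 to -0.66. Fdps kept its call in 8 of 18, Fdft1 in 9 and Acat2 in 11. Leaving out each library in turn gave 4077 to 6466 genes called in all, against 5964, with 10 to 12 sterol genes higher and 3 to 5 lower, and 18 to 26 pathway genes higher and 10 to 16 lower. PBS 1 as the only PBS library gave 2972 genes called in all, 6 sterol genes higher and 2 lower, and 8 pathway genes higher. The olfactory receptor covariate gave 3341 genes in all, 7 sterol genes higher and 1 lower, and 14 pathway genes higher. Pathway genes lower were 20, against 13, with sample weights and also without PBS 2 and NP 2, the samples of library numbers 12 and 13.

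Among the genes named here, signs turned only in those that were not called. With library totals in place of TMM factors Npc1 became -0.00159. Without PBS 2 and NP 2, Srebf2 was -0.0545. With PBS 1 alone against NP, Ggps1 was -0.0386, and with the covariate Ggps1 was -0.0429. Tm7sf2 became 0.00876 with no filter and 0.00621 with limma-trend. Leaving out each library in turn, log2 fold changes ran from -0.14 to 0.0429 for Idi1, from -0.0931 to 0.0722 for Tm7sf2, from -0.00313 to 0.0975 for Srebf2 and from -0.00298 to 0.0857 for Npc1. The cause of these turns was not tested.

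With the replicate number as a block, 5022 genes were called in all, and 11 sterol genes were higher and 4 lower, the call of Insig2 being lost (adjusted p = 0.0564). Deviations of same-numbered PBS and NP libraries correlated at -0.25, -0.28 and -0.21. With 3 libraries per group, each centred on its group mean, these values cannot decide whether the numbers pair the samples. The quasi-likelihood and DESeq2 alternatives were not run. Depth limits Tm7sf2 most, with 849 counts over 6 libraries.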

Other observations

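Farnesyl and isopentenyl diphosphate also feed pathways other than sterols. Of 17 tested genes of prenylation, dolichol, ubiquinone and tRNA isoprenylation, 4 rose and 1 fell, against 19.8% and 21.4% of all genes tested (limma voom). Nus1, a subunit of the enzyme that extends dolichol, rose by a log2 value of 0.24 (adjusted p = 0.00145), Dolk, dolichol kinase, by 0.29 (adjusted p = 0.00212) and Trit1, which puts an isopentenyl group on tRNA, by 0.32 (adjusted p = 0.00789).

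Of 14 tested SREBP1 and fatty acid genes, 2 rose and 2 fell (14.3% each, beside 19.8% and 21.4% of all genes tested). Scd1, the stearoyl-CoA desaturase, read 6.13, 6.17 and 7.87 CPM in PBS 1 to 3 and 9.72, 15.9 and 12.7 CPM in NP 1 to 3, and it rose by 0.89 (adjusted p = 0.00494) on the log2 scale. NP 2 was again the highest NP library and NP 1 the lowest. With PBS 1 as the lone PBS library the calls of Scd1 (adjusted p = 0.0713), Me1 (0.0994) and Nus1 (0.0513) were lost, and with the olfactory receptor covariate that of Me1 (0.105). Me1, the malic enzyme that makes NADPH, rose by 0.42 (adjusted p = 0.00383), and Acaca, the first enzyme of fatty acid synthesis, had a log2 fold change of -0.22 (adjusted p = 5.31e-04). Srebf1 was at 97.6 ± 8.33 CPM in PBS and 88.5 ± 3.78 CPM in NP (SD, n = 3 each), with a log2 fold change of -0.14 (adjusted p = 0.0812). Without PBS 2 Srebf1 was called lower, at -0.20 (adjusted p = 0.0207).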
